A study of Homo sapiens with 5 samples.

Results

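The regions described here are the H2A-K130ac peaks of Romidepsin-treated C4-2B cells that had no abiraterone peak in their neighbourhood. Members were chosen by measured peak positions: a Romidepsin peak was kept when no peak of the abiraterone list lay within 10 kb, edge to edge, on chromosomes 1 to 22 and X. Of 91363 Romidepsin peaks on these chromosomes, 56174 were kept (61.5%, exact 95% binomial interval 61.2 to 61.8%), of 159206 peaks in both lists together. They are called far peaks below, and the other 35189 Romidepsin peaks are called near peaks. Since absence of abiraterone peaks defined them, that absence is not a finding, and each treatment was represented by 1 library, so that nothing was tested between treatments and no value has a replicate error. All intervals are exact and cover counting error only.

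The study asked where cells deposit histone H2A acetylated at lysine 130 (H2A-K130ac), detected by chromatin immunoprecipitation and sequencing (ChIP-seq) with an antibody against that mark. C4-2B is an androgen-responsive human prostate cancer cell line that can grow in castrated hosts; the sample labels name breast cancer for it, and the study uses it as a prostate cancer line. One C4-2B library came from cells given Romidepsin, an inhibitor of the class I histone deacetylases HDAC1 and HDAC2, and the other from cells given abiraterone, an inhibitor of CYP17A1, the enzyme that directs steroid precursors towards androgens. The label protocol gives 0.5 µM Romidepsin in the words used for VCaP cells, and what dose the C4-2B cells received, and for how long, is not given for these libraries in the sources used here, which state doses only for other experiments on this line. No untreated C4-2B library was analysed here, so a far peak is a place called under Romidepsin and not near a peak called under abiraterone, with no statement on the untreated state. Each peak carries the authors' fold over input and a −log10 q, and the depth behind it is unknown because the lists hold no read counts.

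Lysine acetylation removes a positive charge from a histone tail and is placed by acetyltransferases and removed by histone deacetylases. When deacetylases are inhibited, acetyl marks on core histones generally accumulate, both at regulatory regions and over long stretches of chromatin outside them. The mark studied here sits near the carboxy-terminal end of H2A, and the study names KAT2A as its writer and HDAC1 and HDAC2 as its erasers.

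Few far peaks covered the annotated start of a gene, called its start site below. Such a start lay inside 287 of them (0.511%, 0.454 to 0.573%), at 284 genes, against 0.500% of the near peaks (0.429 to 0.580%). Of these 287, 242 belonged to protein-coding genes, 18 to long non-coding RNAs and 13 to microRNAs. For a microRNA the annotated start is that of the hairpin, not of its transcript. The microRNAs are shown first because the hairpin itself, and so the mature sequence, starts inside the peak. A microRNA silences messenger RNAs that pair with its seed, bases 2 to 8 from the 5′ end, printed in capitals (RefSeq, GRCh38.p14; peak coordinates are hg19). MIR98 (peak chrX:53582979-53583377, fold 2.61) and MIRLET7F2 (peak chrX:53584061-53584412, fold 2.61) are adjacent hairpins of the let-7 family, which is known for restraining growth-promoting transcripts, and their 5p products were the only 2 of the 15 mature sequences with a shared seed, GAGGUAG. MIR300 (peak chr14:101507414-101507787, fold 2.61) and MIR496 (peak chr14:101526798-101527790, fold 3.48) belong to the large imprinted microRNA cluster of chromosome 14. MIR153-1 (peak chr2:220158765-220159063, fold 2.58) gives a microRNA best known from neurons.
hsa-miR-98-5p: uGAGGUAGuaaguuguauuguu
hsa-let-7f-5p: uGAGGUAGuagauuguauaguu
hsa-miR-300: uAUACAAGggcagacucucucu
hsa-miR-496: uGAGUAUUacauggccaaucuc
hsa-miR-153-3p: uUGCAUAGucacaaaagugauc

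For protein-coding genes, the 250 bases before the RefSeq start are shown for the 5 far peaks of highest fold that held the start site, covered the whole stretch and matched a RefSeq gene in length, because these are the promoters in which the peak and the sequence can be set side by side. Capitals mark a CCAAT box, searched as CCAAT on either strand, or a GC box, searched in the same way as GGGCGG. The E-box, searched as CACGTG, was found in none of these 5. Neither were the TATA box, searched as TATAAA, and the core of the sterol regulatory element, searched as TCACNCCAC. NR1H3 encodes liver X receptor alpha, a sterol-sensing nuclear receptor (peak chr11:47268567-47270220, fold 4.35, hg19; sequence chr11:47248050-47248299, plus strand, GRCh38.p14). IGFL3 encodes a secreted protein of the insulin growth factor-like family (peak chr19:46627751-46628249, fold 4.35; sequence chr19:46124689-46124938, minus strand). POT1 encodes a subunit of shelterin that binds the single-stranded telomere end (peak chr7:124569322-124570230, fold 4.23; sequence chr7:124929826-124930075, minus strand). CCER1 encodes a coiled-coil protein (peak chr12:91348575-91350189, fold 3.48; sequence chr12:90955177-90955426, minus strand). WRAP53 encodes a Cajal-body protein needed to bring telomerase to telomeres (peak chr17:7588992-7589634, fold 3.48; sequence chr17:7685821-7686070, plus strand).
NR1H3: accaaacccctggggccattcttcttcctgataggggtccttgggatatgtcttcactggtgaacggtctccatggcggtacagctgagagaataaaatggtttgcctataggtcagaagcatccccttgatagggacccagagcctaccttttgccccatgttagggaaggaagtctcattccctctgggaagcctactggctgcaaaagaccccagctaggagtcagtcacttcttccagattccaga
IGFL3: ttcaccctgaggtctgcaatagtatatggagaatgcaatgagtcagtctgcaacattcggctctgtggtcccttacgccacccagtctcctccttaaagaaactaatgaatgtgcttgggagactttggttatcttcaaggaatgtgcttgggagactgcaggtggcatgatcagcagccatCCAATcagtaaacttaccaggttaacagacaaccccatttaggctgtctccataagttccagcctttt
POT1: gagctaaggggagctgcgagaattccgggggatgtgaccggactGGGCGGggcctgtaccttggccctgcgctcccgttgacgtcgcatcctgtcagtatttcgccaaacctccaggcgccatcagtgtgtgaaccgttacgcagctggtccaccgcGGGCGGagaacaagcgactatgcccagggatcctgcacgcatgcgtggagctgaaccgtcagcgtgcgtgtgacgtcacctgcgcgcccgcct
CCER1: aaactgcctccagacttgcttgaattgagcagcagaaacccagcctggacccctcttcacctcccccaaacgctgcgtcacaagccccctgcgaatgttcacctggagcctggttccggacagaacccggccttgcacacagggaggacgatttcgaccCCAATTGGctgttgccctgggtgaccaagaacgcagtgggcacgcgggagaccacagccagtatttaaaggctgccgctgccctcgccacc
WRAP53: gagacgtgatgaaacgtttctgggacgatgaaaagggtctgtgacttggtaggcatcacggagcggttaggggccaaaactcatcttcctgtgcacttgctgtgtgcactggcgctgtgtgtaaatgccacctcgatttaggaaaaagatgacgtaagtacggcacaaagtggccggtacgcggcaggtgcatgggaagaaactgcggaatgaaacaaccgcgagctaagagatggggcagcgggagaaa

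These 5 promoters were of unlike base composition. Over the 300-base window around the start, the observed to expected CpG ratio, which is high in CpG islands, was 0.990 in WRAP53 and 0.956 in POT1, but 0.512 in CCER1, 0.185 in IGFL3 and 0.105 in NR1H3. The summit lay 7 bases after the WRAP53 start and 65 bases after the POT1 start, whereas it lay 794 bases before the NR1H3 start and 862 before that of CCER1. Among the 199 protein-coding promoters with a start in a far peak and a RefSeq sequence, 117 (58.8%, 51.6 to 65.7%) had a CpG ratio of at least 0.6, as did 65.8% of all 15843 protein-coding promoters. A CCAAT box was present in 39.7% of the 199 (32.8 to 46.9%) and in 36.4% of all, a GC box in 53.8% (46.6 to 60.8%) and 58.5%, a TATA box in 10.6% (6.65 to 15.7%) and 9.63%, and an E-box in 7.04% (3.90 to 11.5%) and 8.88%, searched on both strands. The interval of the far-peak promoters held the share of all promoters for each of these 4 motifs and, narrowly, not for the CpG ratio. The sterol regulatory element core was found in 0 of the 199, which allows a share of up to 1.84% (exact interval), and in 1.17% of all promoters. The RefSeq start is not always the start that the peak covered, and among the 39 promoters whose gene length matched, 46.2% had such a CpG ratio (30.1 to 62.8%).

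The start sites inside the far peaks of highest fold belonged to genes of diverse function. TNS1, a tensin that ties integrin adhesions to actin, had a peak at chr2:218750424-218751799 with a fold of 5.16. COL9A1, a chain of cartilage collagen IX, had one at chr6:71012448-71012812 with a fold of 5.16. IL33, a cytokine released as an alarm signal by damaged cells, had one at chr9:6240903-6241782, also with a fold of 5.16. PDE10A, a phosphodiesterase of the striatum, followed with a fold of 5.07, and GABRA6, a GABA-A receptor subunit of cerebellar granule cells, with a fold of 5.02. Their RefSeq starts could not be matched by length, so no sequence is shown for them. Another 3 start sites were singled out after their values were seen, for their bearing on the mark or on steroids: H2AC8, a histone H2A gene (fold 3.48), CYP19A1, the aromatase that turns androgens into oestrogens (fold 3.44), and METTL3, the RNA adenosine methyltransferase (fold 2.61).

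Away from start sites, the far peaks lay mostly between genes and in introns, as the near peaks did. In the authors' annotation, 48.8% of the far peaks were distal intergenic (48.4 to 49.2%), against 46.6% of the near peaks (46.0 to 47.1%). Introns took 37.2%, of which 10.5% were first introns and 26.8% later ones, against 39.0% in the near peaks. Promoters, reaching 3 kb from a start site, took 8.71% (8.48 to 8.95%), against 9.08% (8.78 to 9.38%). Exons outside these classes took 3.23%, 3′ untranslated regions 1.58% and 5′ untranslated regions 0.344%. The median distance to the nearest start site was 40.5 kb for far and 40.8 kb for near peaks. The intergenic intervals of the far and near peaks did not overlap, and the gap between the shares was small beside the shares themselves.

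The reverse set, 34525 abiraterone peaks with no Romidepsin peak within 10 kb (50.9% of 67780), had a lower share at promoters. This was 6.62% (6.36 to 6.89%), with 49.6% distal intergenic and a median of 57.8 kb to the nearest start site. The far Romidepsin peaks thus stood nearer to start sites than the far abiraterone peaks, and 5.17% of them lay over 500 kb from any start site, against 7.73% of the far abiraterone peaks. These are single libraries whose peak lists differed in length and in q-values, and the part of either in these shares was not tested.

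**Figure D1:**
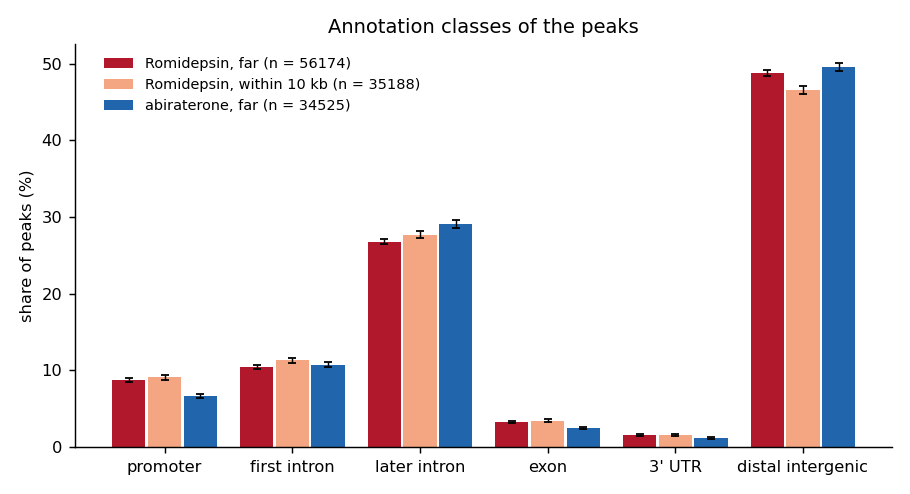
Share of peaks in each annotation class, in percent, for the far Romidepsin peaks, the Romidepsin peaks within 10 kb of an abiraterone peak and the far abiraterone peaks; error bars are exact 95% binomial intervals. Promoters hold 8.71%, 9.08% and 6.62%, respectively, and distal intergenic regions 48.8%, 46.6% and 49.6%; 1 near peak without an annotation row is left out.

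Most far peaks had a low fold and a q above 0.05. A q of at most 0.05 was reached by 11.98% of them, against 13.69% of the near and 87.95% of the far abiraterone peaks. The median −log10 q was 0.717 in both far and near peaks and 1.57 in the far abiraterone peaks. The far share of Romidepsin peaks thus rests on lists of unlike q. The fold over input ran from 1.74 to 9.58 in the far and to 10.5 in the near peaks, with a median of 2.61 in both and an upper quartile of 3.46 and 3.48, and 28.4% of the far peaks carried the single value 2.61, the commonest. A −log10 q of at least 2, equal to a q of at most 0.01, was carried by 1399 far peaks (2.49%, 2.36 to 2.62%), against 3.12% of the near peaks (2.94 to 3.30%). The median width was 348 bp in far and 350 bp in near peaks, and all far peaks together covered 20.5 Mb. Of these 1399 peaks, 9.15% were at promoters (7.69 to 10.8%), against 8.70% of the other far peaks, and 45.2% were distal intergenic (42.5 to 47.8%), against 48.9% (48.5 to 49.3%).

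The far peaks of highest fold lay near genes but rarely at their starts. The highest, whose fold was 9.58 at a −log10 q of 10.2, lay between genes at chr4:69262500-69262709, 46.7 kb from the start of YTHDC1, a nuclear reader of N6-methyladenosine in RNA. The next, with a fold of 9.46, lay in an intron at chr12:47605438-47605609 near PCED1B. Another, with a fold of 9.30, lay in intron 3 of DENND5A, an exchange factor for Rab GTPases, at chr11:9183626-9183793. One of equal fold lay in intron 5 of CYP1A2, a liver cytochrome P450 that also hydroxylates oestrogens, at chr15:75044860-75045222 and 58.2 kb from any abiraterone peak. The last of the 5, with a fold of 9.14, lay in intron 1 of CFI, the complement inhibitor factor I, at chr4:110692877-110693051. Of these 5, 4 were between 168 and 210 bp wide, below the median width. A further gene, named after its value was seen, was SIN3B, a scaffold of HDAC1 and HDAC2 complexes, with a fold of 7.84 at chr19:16943093-16943327, 2.88 kb from its start.

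The distance to the nearest abiraterone peak had a median of 27.0 kb and reached 5.40 Mb. The limit of 10 kb did not fall at a break in the data: Romidepsin peaks numbered 41.0 per Mb within 1 kb of an abiraterone peak, 35.7 at 2 to 5 kb, 34.2 at 5 to 10 kb, 32.7 at 10 to 20 kb, 31.0 at 40 to 50 kb and 24.0 at 100 to 150 kb. The density fell to 8.47 per Mb at 200 to 500 kb. Peaks just outside the limit resembled those just inside: the 2234 peaks at 10 to 11 kb had a mean fold of 3.04 and 9.13% at promoters, and the 2473 at 9 to 10 kb had a mean fold of 3.04 and 9.06%. Just 5 peaks lay at exactly 10 kb and were not kept.

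**Figure D2:**
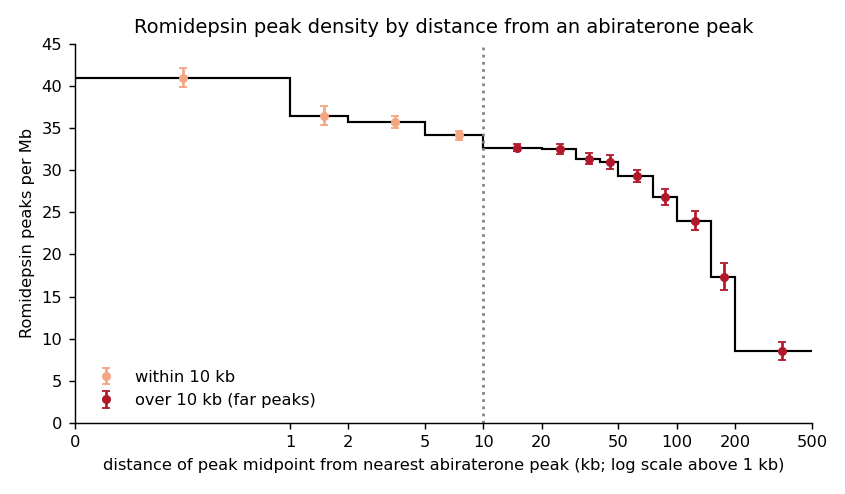
Romidepsin peaks per Mb (y axis) by the distance of the peak midpoint from the nearest abiraterone peak in kb (x axis, log scale above 1 kb); points are distance bins, error bars exact 95% Poisson intervals, and the dotted line marks 10 kb. The density declines from 41.0 per Mb within 1 kb to 8.47 per Mb at 200 to 500 kb, with no step at the dotted line.

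Within the far peaks, the shares at promoters and between genes were higher, and that of later introns lower, in the bin most remote from abiraterone peaks. Promoters held 8.62% of the 18961 peaks at 10 to 20 kb (8.23 to 9.03%), 8.29% of the 25197 at 20 to 50 kb, 9.42% of the 9445 at 50 to 100 kb and 10.9% of the 2571 beyond 100 kb (9.68 to 12.1%). Distal intergenic peaks went over the same bins from 46.6% to 53.3%. Later introns went the other way, from 28.1% to 22.5%. The mean fold was 3.06 in the nearest bin and 2.91 beyond 100 kb, and those whose −log10 q reached 2 made up 2.71% and 1.71%. Chromosome composition moved with distance: chromosome X supplied 463 of the 2571 peaks beyond 100 kb (18.0%), and its part in the class shares was not tested.

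Far peaks occurred on every chromosome, at shares that followed how much of the chromosome lay over 10 kb from an abiraterone peak. The far share of Romidepsin peaks ran from 52.3% on chromosome 1 (51.2 to 53.3%) to 79.1% on chromosome 19 (76.9 to 81.2%) and 78.7% on chromosome X. The share of the chromosome lying that far from an abiraterone peak was 58.5%, 79.1% and 81.8% in the same order. Per Mb of such eligible sequence, the far peaks numbered 30.3 over all chromosomes, where the near peaks numbered 36.9 per Mb of the rest. The order changed on this scale. Chromosome 20 had the most far peaks, 38.2 per eligible Mb, followed by chromosome 1 with 35.9 and chromosome 2 with 35.0, and chromosomes 13 and 3 had the fewest, with 22.6 and 22.7. Chromosome X had 25.3, and on chromosome 19 far and near densities were both 26.8 per Mb.

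**Figure D3:**
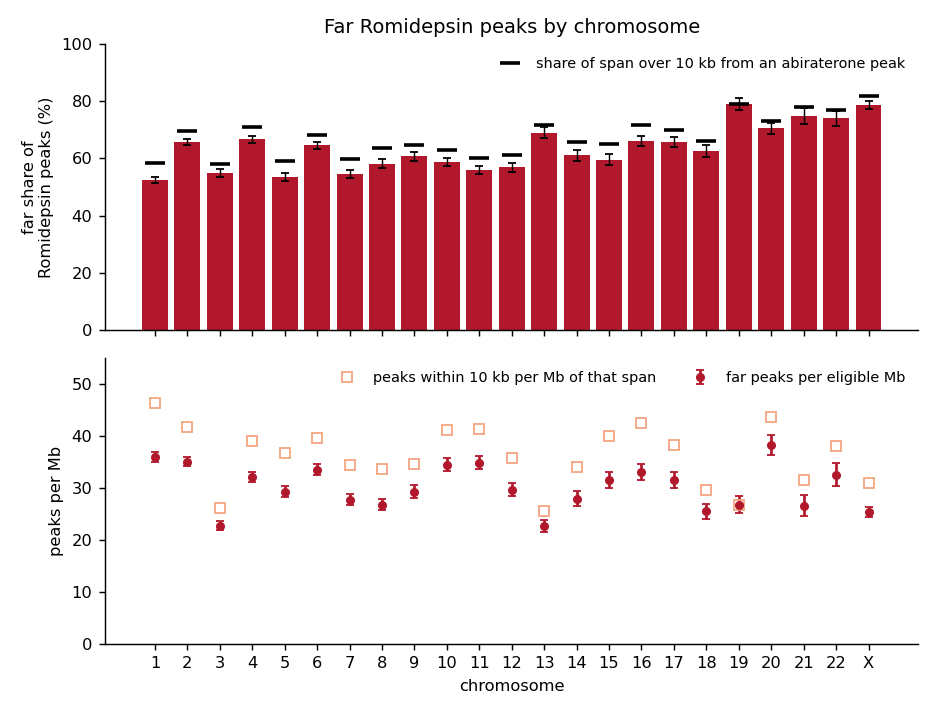
Upper panel, far share of the Romidepsin peaks of each chromosome in percent with exact 95% binomial intervals, and black marks for the share of the chromosome's span over 10 kb from an abiraterone peak; lower panel, far peaks per eligible Mb with exact 95% Poisson intervals and near peaks per Mb of the remaining span. Chromosomes 19 and X have the highest far shares, 79.1% and 78.7%, but 26.8 and 25.3 far peaks per eligible Mb, against 38.2 on chromosome 20.

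Chromosome ends were richer in far peaks. In the 5 Mb at each end, 36.9 far peaks were found per eligible Mb, against 29.8 elsewhere. All Romidepsin peaks numbered 38.4 and 32.1 per Mb in the same stretches, and abiraterone peaks 21.1 and 24.4 per Mb. Short arms of chromosomes 13, 14, 15, 21 and 22 were not counted as ends.

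More far peaks than not had company. Another far peak lay within 10 kb of 53.8% of them (53.3 to 54.2%), and the median distance to the nearest one was 8.49 kb. Chained at gaps of at most 10 kb, they formed 25978 single peaks, 7950 pairs, 3445 groups of 3 or 4 and 538 clusters of at least 5, which together held 3049 peaks. The far abiraterone peaks gave 49.4% and 10.4 kb for the same measures, in a list with fewer peaks.

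The 6 largest clusters each lay in or over a gene. The largest held 15 far peaks in 47.6 kb at chr7:158138450-158186096, all in introns of PTPRN2, a dense-core vesicle protein of neuroendocrine cells. Its folds ran from 1.74 to 5.23, the nearest abiraterone peak lay 23.4 kb away on one side and 38.3 kb on the other, and each of its peaks was annotated to the nearest start site, that of MIR595. The second held 13 peaks in 58.8 kb at chr1:204572460-204631275, over LRRN2, a leucine-rich repeat protein, and the edge of MDM4, the p53-binding relative of MDM2. A cluster of 10 lay in the first intron of KCNQ3, a subunit of the neuronal M-type potassium channel. Another 10 lay at TSPAN11, a tetraspanin, at chr12:31066328-31101716, with 4 of them in promoters. The potassium channel gene KCNH1 held 10 at chr1:210856343-210896426, although all were annotated to the start of its neighbour HHAT. The last 10, at chr1:201003332-201044430, lay in and beside CACNA1S, the calcium channel gene of skeletal muscle, and 6 of them were annotated to the start of the kinesin gene KIF21B. By the authors' classes 5 of these 10 were in exons. Cluster sizes count each listed peak, also where neighbours lay close together, as at chr7:158157050-158157175 and chr7:158157333-158157457 in the PTPRN2 cluster. The median fold was 2.61 in each of the 6 clusters. The highest −log10 q was 2.86 in the PTPRN2 cluster and 1.96 in the KCNH1 cluster. In the clusters at LRRN2, KCNQ3, TSPAN11 and CACNA1S it was 1.29, so none of their peaks reached a q of 0.05.

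Tighter clusters of 9 peaks lay near other genes. BOD1, a regulator of chromosome biorientation, had 9 far peaks in 17.8 kb at chr5:173025224-173043028. The intergenic stretch nearest to SV2C, a synaptic vesicle protein, had 9 in 18.6 kb, and the intronic stretch of the non-coding gene TEX41 had 9 in 18.7 kb. Beyond the start of HDAC4, a class IIa histone deacetylase, 9 intergenic far peaks lay in 18.9 kb at chr2:240372486-240391394, with folds up to 4.35. The highest −log10 q was 1.96 at BOD1 and HDAC4 and 1.29 at SV2C and TEX41.

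**Figure D4:**
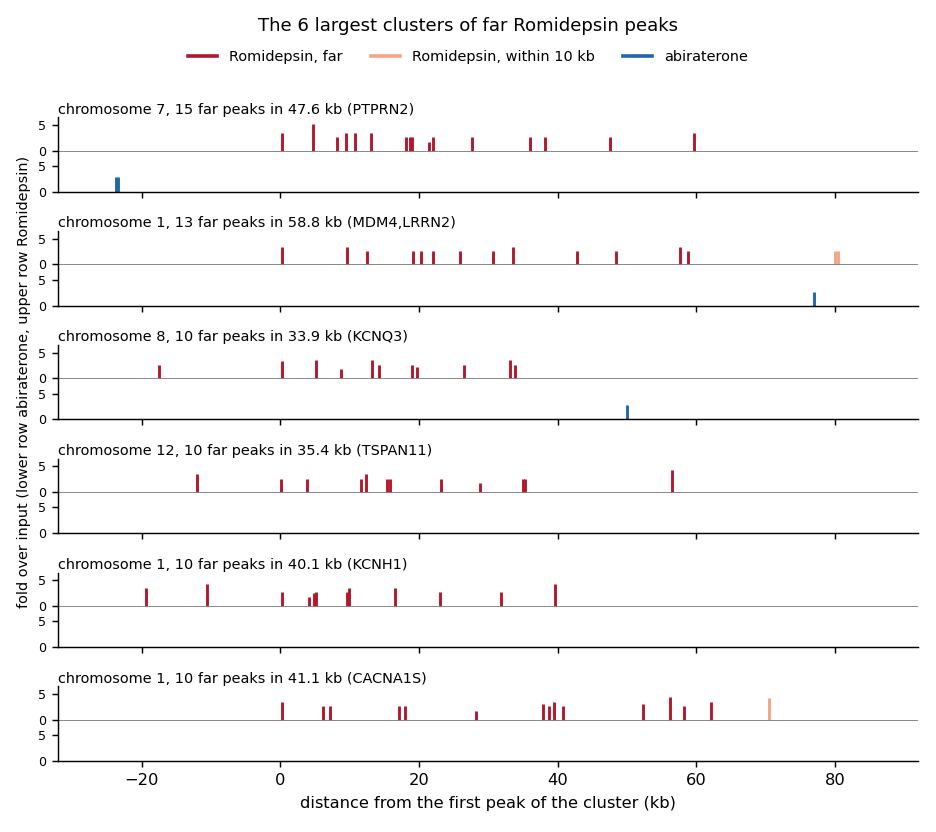
Peaks in and 30 kb either side of each of the 6 largest clusters, by distance in kb from the cluster's first peak; line height is the authors' fold over input, with Romidepsin peaks in the upper and abiraterone peaks in the lower row of each panel. The PTPRN2 cluster holds 15 far peaks in 47.6 kb, and by the distance rule no abiraterone peak can lie inside a cluster.

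The 10 stretches between neighbouring abiraterone peaks that held most far peaks were 169.8 to 763.9 kb long. The first held 26 far peaks in 350.2 kb of chromosome 17 around LHX1, a homeobox gene of kidney and head development, and AATF. A stretch of chromosome 20 around SYNDIG1, a protein of developing synapses, held 25. A stretch of chromosome 16 with CDH3 and CDH1, the P- and E-cadherin genes, held 24. The densest of the 10 leading stretches held 21 far peaks in 169.8 kb of chromosome 15, or 123.7 per Mb, and contained CYP1A1 and CYP1A2, the oestrogen- and xenobiotic-metabolizing P450 genes, next to the kinase gene CSK.

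Counted by gene, 8365 of 18388 genes with limits in the annotation (45.5%) held at least 1 far peak, and 25074 of the far peaks (44.6%) lay within some gene. Of these genes, 3604 held 1, 1704 held 2 and 87 held 20 or more. Length ordered the counts: a far peak lay in 13.8% of genes under 10 kb, 43.5% of those of 10 to 50 kb, 69.3% of those of 50 to 100 kb, 89.5% of those of 100 to 500 kb, and all 283 genes of at least 500 kb. Density went the other way, from 39.2 far peaks per Mb in genes under 10 kb to 18.0 per Mb in genes of at least 500 kb. All Romidepsin peaks fell over the same length classes from 66.4 to 29.8 per Mb. Within protein-coding genes of 10 kb or more the far peaks were spread almost evenly, with 20.4, 19.5, 19.4, 19.5 and 21.2% in 5 equal sections from the 5′ to the 3′ end.

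The genes with most far peaks per kb were short and, as the distance rule favours, held no abiraterone peak. Among 1440 genes of at least 10 kb with at least 5 far peaks, with a median of 0.0323 far peaks per kb, TRIM31 led with 5 in 10.2 kb, or 0.490 per kb (Poisson interval 0.159 to 1.14). TRIM31 is an E3 ubiquitin ligase gene in the major histocompatibility region, and its peaks, with folds from 2.61 to 3.44, comprised 1 in the promoter, 3 in introns and 1 in the 3′ untranslated region. CHRNB2, the beta 2 subunit of the neuronal nicotinic acetylcholine receptor, held 5 in 12.1 kb (0.413 per kb), all over 52.0 kb from an abiraterone peak. P4HTM, a transmembrane prolyl hydroxylase, held 5 in 17.2 kb, all labelled promoter and 3 of them by the start of its neighbour WDR6. These 3 densities rest on 5 peaks each, and their intervals overlap. Some of these peaks lay close together, as at chr6:30073782-30073906 and chr6:30074108-30074235 in TRIM31. The intervals treat each peak as independent, and whether such neighbours are parts of a single site was not tested.

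The rest of the 10 densest genes ran from 0.269 to 0.199 per kb. IGSF9, an adhesion molecule of dendrites, held 5, of which 1 in exon 4 had a fold of 5.23. MAN2A2, an alpha-mannosidase of the Golgi, held 5, and PMP22, the peripheral myelin protein whose dosage underlies inherited neuropathies, held 7 in 31.0 kb. ZNF45, a KRAB zinc finger gene, SLC6A19, an amino acid transporter of gut and kidney, and SERINC2 held 5 each. FAM222A-AS1, a non-coding RNA, held 8 in 39.3 kb and was the only 1 of the 10 in which another Romidepsin peak failed the distance rule, with 9 in all. Only IGSF9 among the 10 held a far peak whose −log10 q reached 2. The 10 genes had to hold at least 5 peaks in a short span to be named, so their densities are extremes by selection.

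The genes with most far peaks were very long. PTPRN2 held 72 in 1049 kb, out of 95 Romidepsin peaks, beside 28 abiraterone peaks, and 61 of the 72 lay in later introns. Its density of 0.0687 per kb (0.0537 to 0.0865) ranked 164 of the 1440. MACROD2, a hydrolase of ADP-ribose marks spanning a fragile site, held 57 in 2058 kb, with 0.0277 per kb. NAV2, a neuron navigator protein, held 40, and 24 of these lay in its first intron. PTPRT, a receptor phosphatase that is often mutated in cancer, also held 40. The others were CAMTA1 with 38, IL1RAPL1 with 38, WWOX with 37, CTNNA2 with 36, RBFOX1 with 36 and AGBL4 with 35. All 10 held abiraterone peaks as well, from 18 in MACROD2 to 48 in RBFOX1 and AGBL4, and in RBFOX1, a splicing factor gene of neurons, 29 of these 48 were over 10 kb from any Romidepsin peak. Of the 10 genes, 4 had at least 0.0358 far peaks per kb, above the median of 0.0323, WWOX lay just above it, and 5 lay below. That median is of genes chosen for holding at least 5 far peaks. All genes of at least 500 kb together had 18.0 far peaks per Mb. The least dense of the 10, RBFOX1, had 21.2 per Mb, and these 10 were chosen for their high counts.

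**Figure D5:**
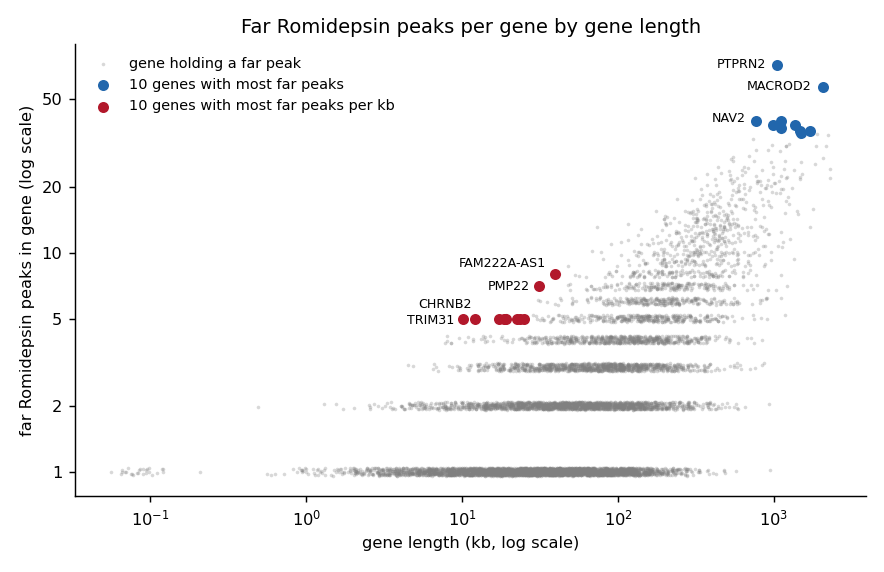
Far Romidepsin peaks per gene (y axis, log scale, with slight vertical jitter for genes drawn in grey) by gene length in kb (x axis, log scale), for the 8365 genes that hold at least 1. The 10 genes with most far peaks per kb (red) are between 10.2 and 39.3 kb long and hold 5 to 8, and the 10 with most far peaks (blue) hold 35 to 72, led by PTPRN2.

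By count of far peaks, the genes that write or erase acetyl marks were led by long genes of class IIa and class I deacetylases. Of 17 with limits, 11 held a far peak (64.7%, 38.3 to 85.8%), with a median length of 41.2 kb. The list had 20.1 far peaks per Mb (14.8 to 26.7), where all genes had 21.7. HDAC4 held 14 of its 18 Romidepsin peaks as far peaks in 353 kb, and HDAC8 7 of 9 in 244 kb. HDAC9 held 7 of 19 in 910 kb, beside 32 abiraterone peaks. HDAC2, one of the targets of Romidepsin, held 4 far peaks in 35.0 kb and no abiraterone peak. HDAC5 and HDAC7, of class IIa, held 3 each. HDAC3 held 2 in 14.3 kb and HDAC6 held 2 in 22.2 kb. Of the acetyltransferases, CREBBP, KAT2B and KAT6A held 2 each. KAT2A, the writer named in the study, and HDAC1 held no far peak. The 1 Romidepsin peak in each of them lay within 10 kb of an abiraterone peak. KAT5 held no peak of either list.

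Sterol and fatty acid synthesis genes held far peaks in 15 of 25 cases (60.0%, 38.7 to 78.9%), at 23.9 per Mb against 21.7 over all genes. ACSL1, which activates long-chain fatty acids, led with 8 far among 13 Romidepsin peaks in 52.9 kb, beside 1 abiraterone peak. ME1, the cytosolic malic enzyme, held 6, ACACB, the acetyl-CoA carboxylase that sits at mitochondria, 5, and ACLY, which makes cytosolic acetyl-CoA from citrate, 3 of 3. SCAP, the escort of the sterol-sensing factors, and MVK held 2 each. SREBF2 and SQLE held 1 each. SREBF1 held no far peak, because its 1 Romidepsin peak lay within 10 kb of an abiraterone peak. HMGCS1 held no Romidepsin peak.

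Of 17 androgen-responsive genes, 6 held a far peak (35.3%, 14.2 to 61.7%). NDRG1 held 4, PMEPA1 2, and FKBP5, TMPRSS2 and TRPM8 1 each. KLK3, which encodes prostate-specific antigen, and KLK2 and HOXB13 held no Romidepsin peak and 1 abiraterone peak each. Among steroid synthesis genes, 12 of 19 held a far peak (63.2%, 38.4 to 83.7%): AKR1C3, which makes testosterone from androstenedione, held 5, CYP19A1 4, and SRD5A2, a 5-alpha reductase, 3. The limits of AKR1C3 span 144 kb, take in all of AKR1C2 and overlap AKR1C1, so a peak can count for more than 1 of these genes. HSD3B1 held 2 in 7.86 kb. CYP17A1, the target of abiraterone, CYP11A1 and STAR held no peak of either list. The intervals of all 4 lists, of acetyl, sterol, androgen-responsive and steroid genes, hold the 45.5% of all genes.

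Neuronal gene families and solute carriers are set beside the 45.5% of all genes and the share of their length class. All 35 of a list of long synaptic and fragile-site genes held far peaks, at 17.3 per Mb (16.2 to 18.5), below the 21.7 of all genes. Of 24 glutamate receptor subunits, with a median length of 281 kb, 21 held one (87.5%, 67.6 to 97.3%, against 89.5% of genes of 100 to 500 kb), among them GRID1 with 23 and the kainate receptor gene GRIK3 with 17 in 238.7 kb. Potassium channel genes, with a median length of 37.9 kb, were held in 52 of 87 cases (59.8%, 48.7 to 70.1%), led by KCNMA1 with 30, where genes of 10 to 50 kb gave 43.5%. GABA receptor subunits were held in 11 of 17 cases (64.7%, 38.3 to 85.8%), led by GABRB1 with 15, at a median length of 82.5 kb, where genes of 50 to 100 kb gave 69.3%. Solute carriers, with a median length of 35.6 kb, were held in 175 of 331 cases (52.9%, 47.3 to 58.4%). In these 4 lists the densities ran from 19.4 to 23.6 per Mb. A median does not describe the spread of lengths in a list, whose part in these shares was not tested.

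Olfactory receptors and ribosomal protein genes, which are short, are set beside the 13.8% of genes under 10 kb. Olfactory receptors held a far peak in 11 of 230 cases (4.78%, 2.41 to 8.40%), with a median length of 0.948 kb, and ribosomal protein genes in 8 of 50 (16.0%), each with 1. The list of cancer-testis families of chromosome X was hit in 4 of 34 cases (11.8%, 3.30 to 27.5%). That count includes SSX2IP, which lies on chromosome 1. Replication-dependent histones were hit in 1 of 24 cases (4.17%), H2AC8. SOX and FOX genes, with a median length of 5.57 kb, were hit in 13 of 45 cases (28.9%, 16.4 to 44.3%). FOXN3 with 10 in 463 kb and FOXO1 with 9 in 193 kb led them. Zinc finger genes and protocadherins are longer, with median lengths of 22.2 and 18.3 kb, where genes of 10 to 50 kb gave 43.5%. Zinc finger genes were hit in 156 of 392 cases (39.8%, 34.9 to 44.8%), led by ZNF423 with 16. Protocadherins were hit in 13 of 31 cases (41.9%, 24.5 to 60.9%), and PCDH1 and PCDH18, both under 16.0 kb, held 4 each without an abiraterone peak. The limits of PCDHA1, PCDHA5, PCDHAC1 and PCDHAC2 overlap and end at the same base. A far peak can thus count for several of them, while the interval treats the genes as independent.

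HOX genes and keratins, also short, had densities whose intervals lay above that of all genes. HOX genes held 93.0 far peaks per Mb (44.6 to 171), in 7 of 18 genes, among them 4 in HOXB3 and 1 each in HOXB4, HOXB9, HOXC8, HOXC9 and HOXC12. The interval lay above the 21.7 per Mb of all genes and also above the 39.2 per Mb of genes under 10 kb. The whole Romidepsin list was dense there too, with 130 peaks per Mb of HOX genes. It had 36.1 over all genes and 66.4 in genes under 10 kb. Keratin genes held 44.1 per Mb (26.9 to 68.1, which holds the 39.2 of genes under 10 kb), in 13 of 48 genes, with 3 each in KRT80 and KRT82 and 1 in KRT5, the basal-cell keratin. HOX genes lie close together and 1 peak can count for overlapping transcripts, so these counts are small and not independent.

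By biotype of the nearest gene, 82.2% of the far peaks were nearest to a protein-coding gene, 10.1% to a long non-coding RNA, 4.19% to a microRNA and 2.65% to a pseudogene. In the near peaks these shares were 83.4, 9.67, 3.95 and 2.23%. The pseudogene intervals of far peaks (2.52 to 2.79%) and near peaks (2.07 to 2.38%) did not overlap, while those of microRNAs (4.03 to 4.36% and 3.75 to 4.16%) did.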

How the data were processed

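H2A-K130ac ChIP-seq peak lists of 2 C4-2B libraries, 1 given Romidepsin and 1 given abiraterone, were used; the 3 VCaP samples were not analysed here. The sources name Bowtie 2 and MACS, with MACS2 and hg38 in the submitters' processing notes, but the last Romidepsin peak of chromosome 1 ends at 249191832, beyond that chromosome in GRCh38, and transcript identifiers are those of UCSC for hg19, so hg19 was assumed. The authors deposited narrow peaks over input with a score, a fold (ratio over input), a −log10 p-value and a −log10 q-value per peak; folds were not normalized between lists. The study's reporting summary instead describes broad regions at a q of 0.01 with a vehicle control, whereas these lists are narrow, are named as set against input and mostly exceed that q; the cell line of this input is not given in the sources used here. Whether duplicates were pooled, and the reads behind each peak, are not given in the sources used here. Each annotated table lacks the first peak of its list, which had become its header.

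Distances were measured edge to edge and the 56174 members were counted again with bedtools 2.31.1, with the same number; the distance and gene counts were tested on simulated lists with planted far peaks. Peaks on chromosome Y and other sequences (36) were left out. Gene limits are the outermost transcript limits in the annotation of both lists, so a gene that was nearest to no peak has no limits here. A gene holds a peak that overlaps it. A peak in overlapping genes counts for each of them, and the intervals of gene lists treat genes as independent. Densities per Mb of gene lists and length classes use peak midpoints, and densities per kb of single genes use the peaks held. Chromosome spans run to the last peak of either list without stretches of over 1 Mb that hold no peak. Of 18388 genes, 18298 matched RefSeq (GRCh38.p14), which gave names, promoter and microRNA sequences; a promoter counted as matched when the UCSC and RefSeq gene lengths differed by at most 50 bp, and the printed promoters were chosen after their values were seen.

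Named genes were the 10 with most far peaks per kb (at least 10 kb and 5 far peaks), the 10 with most far peaks, those at the 5 far peaks of highest fold, in or nearest to the 5 largest clusters, at the 5 start sites of highest fold, and those of the gene lists, of which some are not reported here; others are named as chosen after their values were seen, as are the sixth and later clusters and the abiraterone-free stretches. Members and lists were chosen with earlier results of these data known. Intervals are exact 95% binomial or Poisson intervals. Alternatives were other distances (5, 20 and 50 kb), filters on q and fold, overlap in place of distance, and other limits for promoters, neighbours and genes. No test between treatments was made. Python 3.11.15, pandas 2.3.3, scipy 1.17.1 and matplotlib 3.10.9 were used.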

Additional observations from a re-analysis of the deposited data

How the results depend on the processing

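With 1 library per treatment, the spread between libraries is unknown, and without read counts the depth of a peak is too. No paired analysis was possible because the C4-2B samples comprise a single Romidepsin and a single abiraterone library. Of 49 alternatives over 7 results, 33 moved the value outside the interval of the value reported, largely by construction, since they keep fewer or more peaks.

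The share of far peaks, 61.5%, became 76.6%, 40.7% and 13.2% with a distance of over 5, 20 and 50 kb, 56.0% with Romidepsin peaks of a −log10 q of at least 2, 87.2% with abiraterone peaks so filtered, and 97.1% where only a shared base pair excluded a peak. The promoter share, 8.71%, became 9.73% beyond 50 kb, 9.15% with Romidepsin peaks of a −log10 q of at least 2 (interval 7.69 to 10.8%) and 3.53% with promoters of 1 kb. The share of genes holding a far peak, 45.5%, became 52.1%, 33.4% and 12.3% with over 5, 20 and 50 kb, 3.47% and 55.2% with the Romidepsin and abiraterone filters on q, 38.1% with peaks of at least the median fold and 57.1% with gene limits widened by 5 kb.

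The share with a far neighbour within 10 kb, 53.8%, became 53.2% and 52.4% with over 20 and 50 kb, 57.3% with the filtered abiraterone list, 44.3% with peaks of at least the median fold, 38.5% and 69.4% for neighbours within 5 and 20 kb, and 3.72% with Romidepsin peaks of a −log10 q of at least 2. TRIM31 led the genes by density in 4 of the alternatives, CHRNB2 led beyond 20 and 50 kb, and CACNA1S, with 13 far peaks or 0.178 per kb, led among genes of at least 50 kb; with Romidepsin peaks of a −log10 q of at least 2 no gene held 5.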
